A study of Mus musculus with 4 samples.

Results

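A set of 9 genes that mark successive stages of the B lymphocyte lineage was followed in RNA from mature neutrophils sorted from mouse bone marrow. The members were taken by symbol from a table of 23284 genes: Vpreb1, Igll1, Vpreb3, Rag1, Ebf1, Pax5, Cd79a, Cd79b and Ms4a1. All 9 were present, and all 9 were among the 12634 genes that the authors tested. The groups were Srf KO (2 samples) and WT (2 samples), both of bone marrow cells high for Gr1, for the 7/4 antigen and for side scatter. Srf encodes serum response factor, a transcription factor whose targets include actin genes. The way Srf was deleted, and the age and sex of the mice, are not given in the sources used here. Each sample title carries a number of its own, but the labels do not state whether it stands for an animal, so the spread behind the authors' test may be technical. The table holds 1 pooled FPKM value per genotype (fragments scaled to transcript length and to sequencing depth), so no value can be given for a single sample. The read depth is unknown. Log2 folds are given as Srf KO over WT, each with a standard error (±) obtained by dividing the deposited fold by the deposited test statistic. A gene is said to have risen or fallen where the authors called it, at a p-value adjusted over all tested genes (q-value) of at most 0.05.

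B cells arise in bone marrow. At the pro-B stage the RAG recombinase cuts the immunoglobulin heavy chain locus, and at the pre-B stage the new heavy chain is shown at the cell surface with a surrogate light chain and the signalling chains Ig-alpha and Ig-beta. Cells that pass this checkpoint switch the surrogate light chain off, rearrange a true light chain and leave as immature and then mature B cells. Of the members, Vpreb1 and Igll1 encode the VpreB and lambda5 parts of the surrogate light chain, Rag1 a RAG subunit, and Vpreb3 a related small protein that binds nascent immunoglobulin chains in pre-B and immature B cells. These are the pro-B and pre-B genes here. Ebf1 and Pax5, which encode the factors that specify and commit the lineage, and Cd79a and Cd79b, which encode Ig-alpha and Ig-beta, are on from the pro-B stage to the mature B cell. Ms4a1 encodes CD20, which appears late in the pre-B stage and is highest in mature B cells.

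Srf stood at 0.439 FPKM in Srf KO and 13.7 FPKM in WT in the authors' deposited table, and the groups thus differed at the deleted gene as their labels say. The 9 tested genes of a neutrophil marker list summed to 30918 FPKM in Srf KO and 42384 FPKM in WT by the authors' deposited table, against 195 FPKM in Srf KO and 123 FPKM in WT for the 9 B lineage genes. Most of the neutrophil sums came from Retnlg (17117 FPKM in Srf KO and 24805 FPKM in WT) and Lcn2 (10418 FPKM in Srf KO and 11068 FPKM in WT) in the authors' deposited table. Neither was called. Of the 9 neutrophil genes, 2 (Mpo and Elane) had the higher value in Srf KO. In bulk RNA, fewer cells of a type and less RNA per cell cannot be told apart. Camp, Ngp, Ltf, S100a8 and S100a9 carry the mark for too much data in place of a test, and the antigen gene Ly6g was not analysed here.

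The bases before the start sites of 4 members are shown: Vpreb1 and Igll1, neighbours on chromosome 16 that had the largest folds, Vpreb3, the most abundant pro-B and pre-B gene, and Cd79a, which had the smallest fold. Each run is the 250 bases upstream of the RefSeq start (GRCm38.p6), and capitals mark matches to a searched motif.
Vpreb1, chr16:16869256-16869505, minus strand: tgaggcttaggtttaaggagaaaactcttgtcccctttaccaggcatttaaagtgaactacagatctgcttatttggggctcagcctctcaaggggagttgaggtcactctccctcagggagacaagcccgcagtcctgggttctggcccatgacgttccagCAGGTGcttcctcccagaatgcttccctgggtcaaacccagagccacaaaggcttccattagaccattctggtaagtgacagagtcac
Igll1, chr16:16863986-16864235, minus strand: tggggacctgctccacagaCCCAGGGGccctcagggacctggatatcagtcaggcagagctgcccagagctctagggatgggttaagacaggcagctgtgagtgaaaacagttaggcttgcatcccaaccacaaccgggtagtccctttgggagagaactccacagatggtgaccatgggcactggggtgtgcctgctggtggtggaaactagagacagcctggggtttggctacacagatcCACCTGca
Vpreb3, chr10:75948050-75948299, plus strand: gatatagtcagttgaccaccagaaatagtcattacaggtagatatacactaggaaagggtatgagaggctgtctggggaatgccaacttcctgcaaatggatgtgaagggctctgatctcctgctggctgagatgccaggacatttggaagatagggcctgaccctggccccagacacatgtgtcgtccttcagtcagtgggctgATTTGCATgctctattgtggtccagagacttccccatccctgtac
Cd79a, chr7:24897247-24897496, plus strand: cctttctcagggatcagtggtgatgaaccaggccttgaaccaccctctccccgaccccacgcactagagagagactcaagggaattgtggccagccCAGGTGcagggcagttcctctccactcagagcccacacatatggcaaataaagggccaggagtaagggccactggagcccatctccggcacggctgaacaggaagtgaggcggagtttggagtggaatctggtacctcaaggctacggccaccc

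The motifs were the core of the EBF1 palindrome (CCCNNGGG), the E-box CAGGTG bound by E proteins, the octamer ATGCAAAT bound by OCT factors, and the CArG box bound by SRF, each sought on both strands. A RefSeq promoter was found for 7 of the 9 members. The E-box was in the window of 4 of these 7 (Vpreb1, Igll1, Rag1 and Cd79a), and in 17.2% of all 32851 promoters of the same length. In Igll1 it lay 8 bases before the start, written on the other strand as CACCTG. The octamer was in the Vpreb3 window, 45 bases before the start and on the other strand, as capitals ATTTGCAT, and in 1.6% of all promoters. The EBF1 core was in the Igll1 window and in 11.8% of all promoters. No member window held a CArG box, which 1.47% of all promoters hold. A match is a description of the letters, and no binding was measured.

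All 9 B lineage genes were higher in Srf KO than in WT in the authors' deposited table, and 6 of the 9 were called higher. None was called lower. Among all 12634 tested genes, 17.7% were called higher, 35.5% were called in either direction and 54.1% had the higher value in Srf KO. Without adjustment all 9 members had a p-value of at most 0.05 by the authors' test, against 23.4% of tested genes that were higher at that p-value. The median log2 fold of the members was 0.61, with a range of 0.43 to 1.26, and that of all 12552 tested genes with a fold was 0.08.

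**Figure D1:**
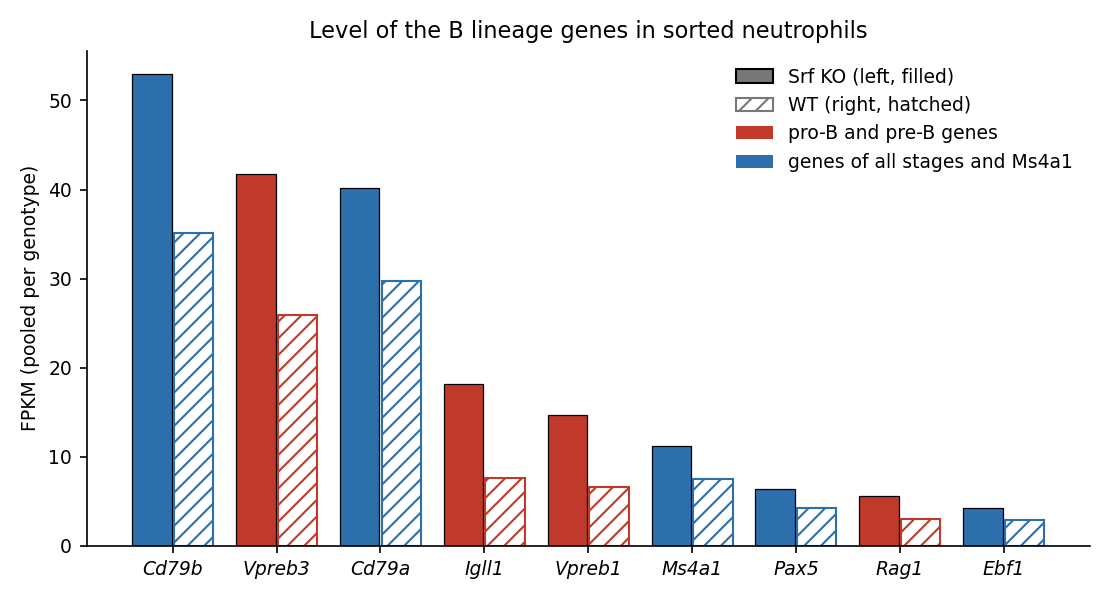
Level of each B lineage gene in FPKM, 1 pooled value per genotype without an error, with Srf KO (filled) left of WT (hatched) and genes ordered by their Srf KO level. Every Srf KO bar is taller than its WT bar, from Cd79b at 52.9 against 35.1 FPKM to Ebf1 at 4.22 against 2.84 FPKM.

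The surrogate light chain genes had the largest folds as deposited, though not after the adjustment for transcript length given further on. Igll1 (ENSMUSG00000075370.12, mm10 chromosome 16, 16860671 to 16863985, minus strand, 3 exons) stood at 18.2 FPKM in Srf KO and 7.59 FPKM in WT in the authors' deposited table. It rose 2.40-fold, with a log2 fold of 1.26 ± 0.27 and an adjusted p of 3.31e-05 in the authors' deposited table. Of all tested genes with a fold, 5.4% had a larger one. Its partner Vpreb1 (ENSMUSG00000059305.12, mm10 chromosome 16, 16868401 to 16869255, minus strand, 2 exons) stood at 14.7 FPKM in Srf KO and 6.59 FPKM in WT in the authors' deposited table. The rise was 2.23-fold, with a log2 fold of 1.16 ± 0.29 and an adjusted p of 0.000442 in the authors' deposited table. These were the 2 members at or above a 2-fold rise, which 7.16% of tested genes also reached with a call.

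Vpreb1 has a near-identical copy, Vpreb2, and their annotated transcripts were 97.4% identical over 759 aligned bases. Reads of the copies cannot be assigned with certainty. Vpreb2 stood at 8.47 FPKM in Srf KO and 3.32 FPKM in WT in the authors' deposited table, and it was called higher too (log2 fold 1.35 ± 0.39). Summed over the copies, the level was 23.2 FPKM in Srf KO and 9.91 FPKM in WT, a log2 fold of 1.23.

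Rag1 (ENSMUSG00000061311.6, mm10 chromosome 2, 101638252 to 101649532, minus strand, 2 exons) stood lower, at 5.60 FPKM in Srf KO and 3.01 FPKM in WT in the authors' deposited table. It rose 1.86-fold (log2 fold 0.90 ± 0.22, adjusted p = 0.000285) in the authors' deposited table. Rag2, which encodes the other RAG subunit, stood at 1.28 FPKM in Srf KO and 0.736 FPKM in WT in the authors' deposited table and was not called (log2 fold 0.79 ± 0.40). Vpreb3 (ENSMUSG00000000903.3, mm10 chromosome 10, 75948312 to 75949646, plus strand, 2 exons) was the second most abundant member in Srf KO. It stood at 41.8 FPKM in Srf KO and 25.9 FPKM in WT in the authors' deposited table. Its rise was the smallest of the pro-B and pre-B genes, 1.61-fold, with a log2 fold of 0.69 ± 0.24 and an adjusted p of 0.0168 in the authors' deposited table.

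The genes that stay on to the mature B cell had smaller folds as deposited. Cd79b (ENSMUSG00000040592.11, mm10 chromosome 11, 106311341 to 106314529, minus strand, 6 exons) was the most abundant member in either genotype, at 52.9 FPKM in Srf KO and 35.1 FPKM in WT in the authors' deposited table. It rose 1.51-fold, with a log2 fold of 0.59 ± 0.21 and an adjusted p of 0.0159 in the authors' deposited table. Its partner Cd79a (ENSMUSG00000003379.7, mm10 chromosome 7, 24897511 to 24902197, plus strand, 5 exons) had 40.1 FPKM in Srf KO and 29.8 FPKM in WT in the authors' deposited table. The difference in Cd79a was not called (log2 fold 0.43 ± 0.21, adjusted p = 0.0971) in the authors' deposited table. The 95% interval of its log2 fold ran from 0.02 to 0.85, by the normal distribution on which the authors' p-value rests.

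The lineage factors were the least abundant of these genes, with Rag1. Ebf1 (ENSMUSG00000057098.14, mm10 chromosome 11, 44618134 to 45005172, plus strand, 16 exons) had 4.22 FPKM in Srf KO and 2.84 FPKM in WT in the authors' deposited table. Pax5 (ENSMUSG00000014030.15, mm10 chromosome 4, 44531506 to 44710440, minus strand, 10 exons) had 6.40 FPKM in Srf KO and 4.19 FPKM in WT in the authors' deposited table. Neither was called, with log2 folds of 0.57 ± 0.26 and 0.61 ± 0.28 and adjusted p-values of 0.0765 and 0.0765 in the authors' deposited table. Ms4a1 (ENSMUSG00000024673.9, mm10 chromosome 19, 11249675 to 11266241 by GENCODE, minus strand, 7 exons) had 11.2 FPKM in Srf KO and 7.48 FPKM in WT in the authors' deposited table. It rose 1.49-fold (log2 fold 0.58 ± 0.23, adjusted p = 0.0330) in the authors' deposited table, at a locus that the table joins with Ms4a5 and 4930526L06Rik. In GENCODE M21 another gene overlaps 6 of the 9 members (all but Igll1, Cd79a and Cd79b), and the library kit does not keep the strand.

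**Figure D2:**
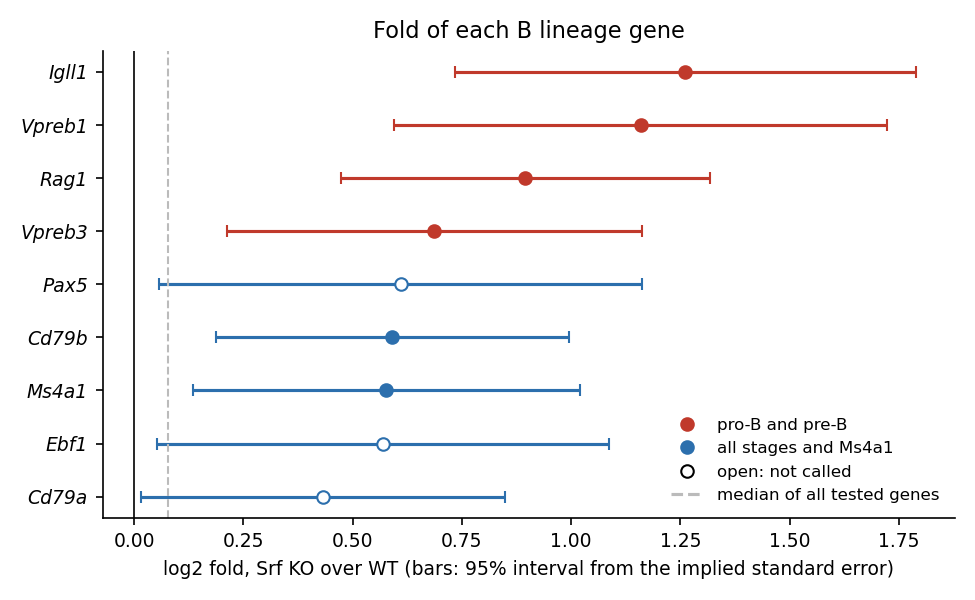
Log2 fold of each B lineage gene, Srf KO over WT, with 95% intervals from the implied standard error; filled points were called and the dashed line is the median of all tested genes (0.08). The 4 pro-B and pre-B genes (red) lie between 0.69 and 1.26 and the other 5 (blue) between 0.43 and 0.61, with intervals that overlap.

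The 4 pro-B and pre-B genes were all called higher, with a median log2 fold of 1.03, against 2 of 5 called and a median of 0.58 for the other members. The folds of the sets did not overlap: Vpreb3 at 0.69 was the lowest of the first and Pax5 at 0.61 the highest of the second. There were 20 pairs that set a pro-B or pre-B gene against another member. The combined standard error of a pair is the root of the summed squares of both standard errors. It takes the folds as independent, which is not known, since they come from the same samples. By it 2 pairs differed by more than 2 combined standard errors, Igll1 against Cd79a (0.83 ± 0.34) and Vpreb1 against Cd79a (0.73 ± 0.36). These pairs set the largest folds against the smallest. In 13 pairs the difference exceeded 1 combined standard error, and these were pairs of Igll1, Vpreb1 or Rag1. Vpreb3 differed from the other members by 0.08 to 0.25, less than 1 combined standard error in each pair. The difference between the sets was not tested, since members are not replicates of a genotype.

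The balance between members moved with these folds. Cd79a had the smallest fold, so the ratio of every other member to it was higher in Srf KO by construction. Per 100 FPKM of Cd79a there were 45.3 FPKM of Igll1 in Srf KO and 25.5 FPKM in WT. That ratio was 1.78 times as high in Srf KO. For Vpreb1 there were 36.7 FPKM in Srf KO and 22.2 FPKM in WT. For Ms4a1 there were 27.8 FPKM in Srf KO and 25.2 FPKM in WT, and for Pax5 15.9 FPKM in Srf KO and 14.1 FPKM in WT. The other pro-B and pre-B genes lay closer between genotypes, with 104 FPKM of Vpreb3 in Srf KO and 87.2 FPKM in WT, and 13.9 FPKM of Rag1 in Srf KO and 10.1 FPKM in WT. No error can be given for these ratios of levels. The log2 fold of Igll1 was above that of Pax5 by 0.65 ± 0.39 and that of Vpreb1 by 0.55 ± 0.40, under 2 combined standard errors, and with length adjusted the differences were -0.01 and -0.12. The pro-B and pre-B genes held 41.1% of the summed FPKM of the 9 members in Srf KO and 35.2% in WT. The order of levels was nearly the same in both genotypes: Cd79b was first, and Pax5, Rag1 and Ebf1 were the last 3. Vpreb3 stood above Cd79a in Srf KO and below it in WT, and Vpreb1 stood above Ms4a1 in Srf KO and below it in WT. No error is given for a level, so it is not known which neighbours in the order differ.

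Across all tested genes, the log2 fold fell with transcript length. The running median of the log2 fold over all 12448 tested genes with a length was 0.37 at the length of Vpreb1 (766 bases) and -0.30 at that of Pax5 (8004 bases). With this trend subtracted, the log2 folds were 1.13 for Rag1, 0.91 for Pax5, 0.89 for Igll1, 0.79 for Vpreb1, 0.76 for Ebf1, 0.59 for Ms4a1, 0.33 for Vpreb3, 0.25 for Cd79b and 0.17 for Cd79a. The stage sets then overlapped, with medians of 0.84 for the pro-B and pre-B genes and 0.59 for the others. The median difference was 0.25, against 0.45 as deposited, and the pro-B or pre-B gene was the higher in 15 of the 20 pairs. Again 6 members were called higher, of which 4 were the same. Of all 12448 genes, 14.4% were called higher after this adjustment. Ebf1 and Pax5 gained the call, while Vpreb3 and Cd79b lost it with Benjamini-Hochberg adjusted p-values of 0.309 and 0.364. The part of length in the fold of a single gene was not tested.

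**Figure D3:**
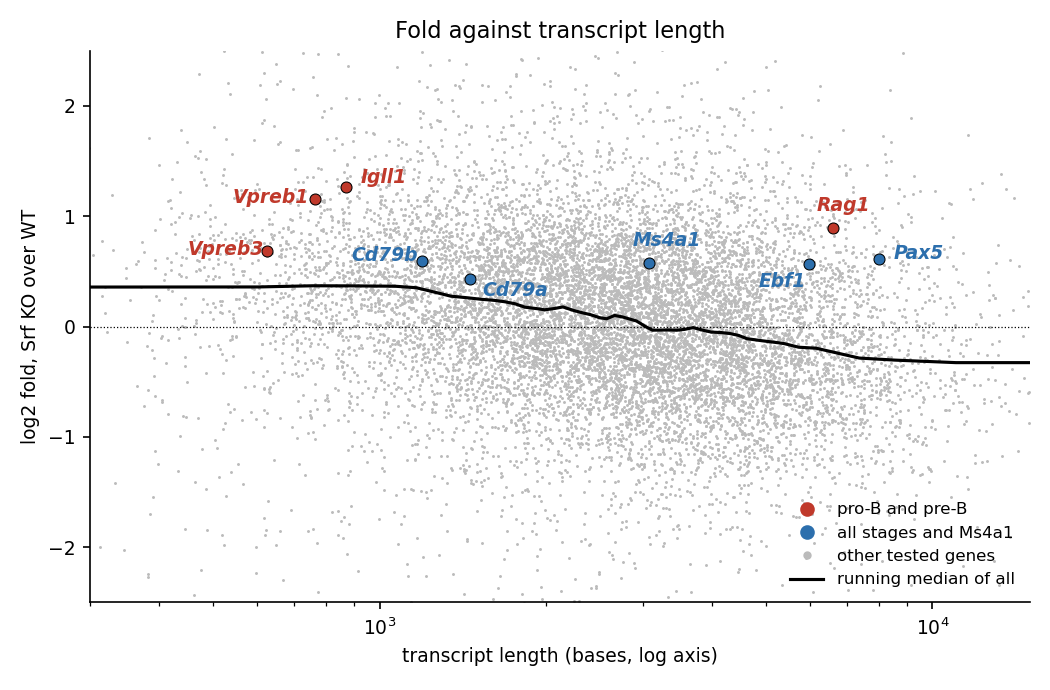
Log2 fold, Srf KO over WT, against transcript length (log axis) for tested genes (grey; 241 genes of 12448 lie outside the axes), with their running median (black line) and the 9 B lineage genes. The line falls with length, and all 9 members lie above it, from Cd79a, 0.17 above, to Rag1, 1.13 above.

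Wider lists of B lineage genes hold the members and others of their stage. The counts of all lists below stand against 17.7% called higher and 17.8% called lower among all tested genes. Outside the members the median log2 fold was 0.74 over 11 pro-B and pre-B genes, 0.67 over 13 genes of B cell identity at all stages and 0.17 over 26 genes of mature B cells. Of 15 tested pro-B and pre-B genes, 11 were called higher and 0 lower, with a median log2 fold of 0.76, and all 15 had the higher value in Srf KO. Outside the members the largest folds with a call were those of Vpreb2, of Dntt, which encodes the terminal transferase that adds bases at V(D)J joints (1.12 ± 0.23), and of the complexin gene Cplx2 (0.77 ± 0.25) in the authors' deposited table. Dntt stood at 12.4 FPKM in Srf KO and 5.74 FPKM in WT in the authors' deposited table. Of 17 genes of B cell identity at all stages, 9 were called higher and 0 lower, with a median of 0.61. They included Bcl11a, a factor gene (0.90 ± 0.32), Blnk, which encodes an adaptor of the pre-B and B cell receptors (0.90 ± 0.24), and Ralgps2 (0.81 ± 0.29), whose locus is shared with Angptl1, in the authors' deposited table.

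Calls among genes of mature B cells went both ways. Of 27 tested, 8 were called higher and 3 lower, against 17.7% and 17.8% of all tested genes. The median log2 fold of the list was 0.19, within the middle 50% of all tested genes. The largest rises were those of Cd83 (1.24 ± 0.31), Cd180 (1.21 ± 0.23) and the MHC class II gene H2-Aa (1.20 ± 0.21) in the authors' deposited table. Antigen-presenting cells of other lineages use these genes too. The falls were those of Ltb, the lymphotoxin beta gene (-1.20 ± 0.19), the tetraspanin gene Cd37 (-0.87 ± 0.18) and the Fc receptor-like gene Fcrl1 (-0.80 ± 0.24) in the authors' deposited table. Ltb stood at 38.5 FPKM in Srf KO and 88.6 FPKM in WT, above Ms4a1 in either genotype, in the authors' deposited table. Cd37 stood at 106 FPKM in Srf KO and 195 FPKM in WT in the authors' deposited table. In WT that was above the 123 FPKM summed over the 9 B lineage genes. Which cells the transcripts of the fallen genes came from was not tested. Cd74, the most abundant of the list in Srf KO (it encodes the invariant chain of MHC class II, at a locus shared with a microRNA gene), rose to 151 FPKM in Srf KO, against 92.0 FPKM in WT, in the authors' deposited table. Without Cd74, Ciita and the H2 genes the list had 5 of 21 called higher, 3 lower and a median of 0.12, a choice made after seeing the data.

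Of 19 tested B lineage transcription factor genes, 12 were called higher and 0 lower (median 0.69). This list overlaps the others. Of those called, Bcl11a, Spib, Pou2af1, Ikzf3 and Foxo1 are also counted among the identity genes. Sox4 and Lef1 are counted among the pro-B and pre-B genes, Bach2 among the mature genes and Irf4 among the plasma cell markers. Beside Bcl11a the largest rises were in Tcf4, an E protein gene (0.84 ± 0.24), and Bach2 (0.81 ± 0.23), at a locus shared with another gene, in the authors' deposited table. Ikzf1, the most abundant of them, was not called, at 83.0 FPKM in Srf KO and 88.8 FPKM in WT in the authors' deposited table. Of 14 genes of V(D)J recombination, 6 were called higher and 1 lower (median 0.38). Besides Rag1 and Dntt these included Xrcc5 (1.26 ± 0.30) and Xrcc6 (0.86 ± 0.21), which encode the Ku subunits of end joining in all cells, and the most abundant, Hmgb2, at 686 FPKM in Srf KO and 480 FPKM in WT, in the authors' deposited table. The polymerase lambda gene Poll fell (-0.69 ± 0.25) in the authors' deposited table.

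Of 28 genes of B cell receptor signalling, 5 were called higher, 11 lower and 12 not at all, against 17.7% called higher and 17.8% lower among all tested genes. The list's median log2 fold was -0.17, within the middle 50% of all tested genes. Among those called lower, Pik3cd (-1.22 ± 0.21) encodes a lipid kinase, Pik3ap1 (-1.12 ± 0.20) its adaptor and Inpp5d (-1.02 ± 0.18) the phosphatase SHIP1, in the authors' deposited table. Ptpn6, a phosphatase gene and the most abundant one, fell to 232 FPKM in Srf KO, against 368 FPKM in WT, in the authors' deposited table. Neutrophils use these signalling genes as well. Those called higher included Cd79b, Blk, Blnk and Fyn (1.33 ± 0.24), and in the authors' deposited table the B cell kinase gene Blk had 4.52 FPKM in Srf KO and 2.91 FPKM in WT.

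At the far end of the lineage, 5 of 10 tested plasma cell markers were called higher and 0 lower (median 0.81). Igj, which encodes the joining chain of IgA and IgM, had a larger fold than any of the 9 members (1.42 ± 0.19, adjusted p = 1.26e-11) in the authors' deposited table. It stood at 62.1 FPKM in Srf KO and 23.2 FPKM in WT in the authors' deposited table, above Cd79b in Srf KO and below it in WT. Fkbp11 (1.23 ± 0.43) and the syndecan 1 gene Sdc1 (0.76 ± 0.31) also rose, at low levels of 1.95 and 1.11 FPKM in Srf KO, against 0.828 and 0.653 FPKM in WT, in the authors' deposited table. Xbp1, the most abundant of the list and not specific to plasma cells, had 71.5 FPKM in Srf KO and 70.7 FPKM in WT in the authors' deposited table. Of the immunoglobulin list Igj alone could be followed; the heavy and light chain genes were not analysed here.

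Markers of other cell types moved with the B lineage genes, and their part in the result was not tested. Of 18 tested markers of T and NK cells, the authors called 15 higher and 0 lower, with a median log2 fold of 1.79 and a summed level of 130 FPKM in Srf KO and 55.0 FPKM in WT by the authors' deposited table. For erythroid markers the counts were 9 and 0 of 12, the median 1.76 and the sums 282 FPKM in Srf KO and 179 FPKM in WT by the authors' deposited table. For platelet markers they were 8 and 0 of 13, with a median of 1.65 over the 12 with a fold and sums of 73.3 FPKM in Srf KO and 28.3 FPKM in WT by the authors' deposited table. Macrophage markers had 9 of 11 called higher and 1 lower, a median of 1.30 and sums of 196 FPKM in Srf KO and 125 FPKM in WT by the authors' deposited table. In the authors' deposited table Nkg7 had 52.8 FPKM in Srf KO and 24.1 FPKM in WT, Hbb-b2 158 FPKM in Srf KO and 128 FPKM in WT, Pf4 39.2 FPKM in Srf KO and 2.68 FPKM in WT, and Hmox1 69.8 FPKM in Srf KO and 61.4 FPKM in WT. Hbb-b2 and Hmox1, the most abundant of the erythroid and macrophage lists, were not called (log2 folds 0.30 ± 0.29 and 0.19 ± 0.19). Each of these list medians was above the 0.61 of the 9 B lineage genes and above the 1.26 of Igll1. Gp6 of the platelet list was at 0 in WT, and no other tested marker of these 4 lists was at 0 in either genotype.

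Other cells share genes with early B cells. Of 12 plasmacytoid dendritic cell markers, which include Dntt, Spib and Tcf4, 7 were called higher and 0 lower (median 1.14), with sums of 144 FPKM in Srf KO and 73.2 FPKM in WT by the authors' deposited table. Bst2, the most abundant of them, is also induced by interferon, and had 61.1 FPKM in Srf KO and 15.8 FPKM in WT in the authors' deposited table. The 10 lymphoid progenitor markers include Dntt and Il7r, both called higher and already counted among the pro-B and pre-B genes. Of these 10 markers, 6 were called higher and 1 lower (median 0.80). They summed to 110 FPKM in Srf KO and 105 FPKM in WT by the authors' deposited table. Ly6d, the most abundant of them, had 31.7 FPKM in Srf KO and 27.2 FPKM in WT in the authors' deposited table and was not called. Neutrophil markers had 1 of 9 called higher and 5 lower, with a median of -0.73. Retnlg, which leads the tested ones in level, had 17117 FPKM in Srf KO and 24805 FPKM in WT in the authors' deposited table and was not called.

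**Figure D4:**
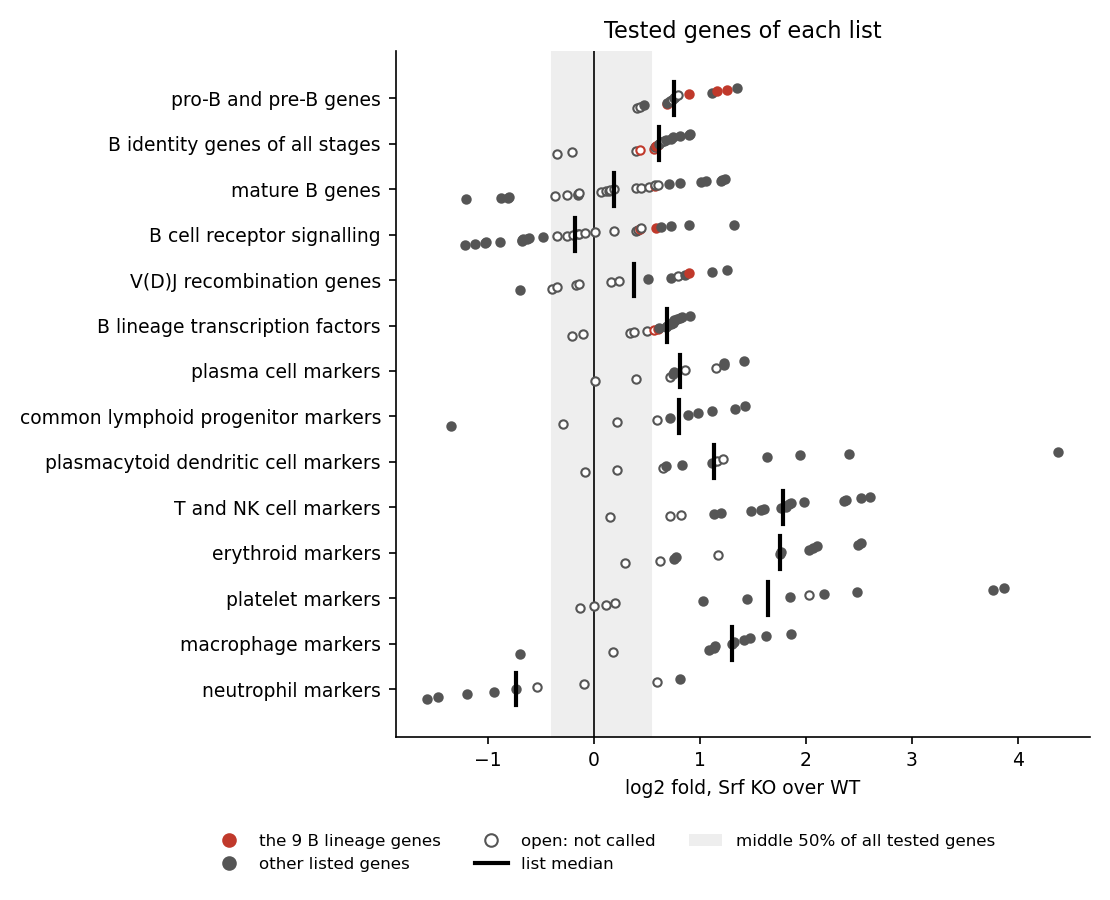
Log2 fold, Srf KO over WT, of every tested gene with a fold in each list, with the list median (bar), called genes filled and the middle 50% of all tested genes shaded (-0.40 to 0.54). The 9 B lineage genes lie between 0.43 and 1.26, and the medians of the T and NK, erythroid, platelet and macrophage lists lie further right.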

How the data were processed

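Libraries of 4 samples, 2 Srf KO and 2 WT, used Illumina's unstranded TruSeq RNA kit (v2), per the labels' protocols. The submitters' processing notes list TopHat2 2.0.0, CASAVA 1.8.1 and Cufflinks 2.0.0, with mm10 as the build and no settings. The 4 tables used hold genes, isoforms, start site groups and coding sequences. FPKM was deposited by the authors as 1 value per genotype, so replicate spread, depth and an analysis without each sample could not be had. Per the file headers the deposited log2 fold sets WT over KO; it is printed here with the opposite sign. The authors also deposited a test statistic, used as a score, with their p-value and q-value, which were found to be its two-sided normal tail and the Benjamini-Hochberg adjustment over the 12634 genes tested. The implied standard error is the fold divided by the statistic.

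No test over samples was possible, so the authors' test is the result, and lists are given by counts and medians. The members and all 18 lists were chosen with earlier results of these data known. Named genes were the members and, per B lineage list, up to 3 called genes in each direction reaching 1 FPKM in either genotype and the most abundant tested gene, which is also given for lists of other cell types. Rag2 and Blk stand outside this rule and were chosen after their values were seen, and 1 gene that the rule names is not reported here. Lengths are of GENCODE M21 transcripts matched to the isoform of highest FPKM or else the median of the gene's transcripts (99.2% of genes with a fold have one), and the length trend is a running median over 50 bins smoothed over 5. The recomputed p-values and this adjustment were run on simulated data with few changed genes and a straight-line trend in log length. In the data 35.5% of tested genes were called, so that run does not show how the adjustment acts on them. The authors' isoform table lists 1 isoform for each of the 9 members, and the other 3 tables repeat their gene values without a test. Promoters are RefSeq's. Computation used scipy 1.17.1, pandas 2.3.3, numpy 2.4.6 and matplotlib 3.10.9 under Python 3.11.15. Alternatives were other thresholds, a 2-fold minimum, a filter at 1 FPKM, pseudocounts of 1 and 0.1, centred folds, adjustment for length and the other tables.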

Additional observations from a re-analysis of the deposited data

How the results depend on the processing

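Of the 9 members, 6 were called higher as deposited, 9 at a p-value of at most 0.05 without adjustment, 6 after readjustment over genes at 1 FPKM or more, 5 with folds centred on the median of all genes (a shift of 0.08, with Ms4a1 at an adjusted p of 0.0697) and 6 after adjustment for length, 4 of them shared. At a q-value of at most 0.01 there were 3 (10.8% of tested genes were higher at that threshold), and with a 2-fold minimum 2, both fewer by construction. Of all tested genes, 17.7% were called higher as deposited, 23.4% were higher at an unadjusted p-value of at most 0.05 by the authors' test, and 7.16% passed the 2-fold minimum. After adjustment for length, 14.4% of all genes with a length were called higher. For the readjusted and the centred calls no share over all genes was computed, so those counts have nothing to be set against. Each stage median kept its direction under every alternative run: 0.84 to 1.03 for the pro-B and pre-B members, also without Vpreb1 (0.90), and 0.50 to 0.59 for the others. Each moved by less than the median of its members' implied standard errors (0.26 and 0.23), which is not an error of the stage median. The isoform table and the filter at 1 FPKM repeated the deposited medians by construction. The median difference between the sets was 0.45 as deposited and 0.25 with length adjusted, where the sets overlapped. The share of pro-B and pre-B members in the summed FPKM was 5.94 percentage points higher in Srf KO than in WT. That difference was 10.4 points without Vpreb3 and Cd79b, the most abundant of each set, 5.70 with Vpreb3 among the others and 2.85 on summed log2(FPKM + 1), and the cause was not tested. Of 55 alternative values of single members, none changed direction, 3 lost the call (Vpreb3 and Cd79b with length, Ms4a1 with centring) and 2 gained it (Ebf1 and Pax5 with length). Most of these values could not have changed direction. The other tables repeat the gene values, and a pseudocount keeps the sign of a fold. The centring shift of 0.08 was smaller than the fold of any member. Vpreb1 and Vpreb2 were both higher in Srf KO, so their sum had to be higher too. Only the adjustment for length could have changed a direction. The median of each wider list kept its sign with length adjusted. The isoform, start site and coding sequence tables gave no count of calls, since the authors tested none of the members there. No paired analysis was possible because the tables hold 1 pooled value per genotype, and leaving out a sample was not possible for the same reason. The stage order under length adjustment, the sum with Vpreb2, the list without MHC class II genes and the set without Vpreb1 were chosen after seeing the data.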
